A study of Danio rerio with 14 samples.

Results

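Accessible regions of 800 bp or more were examined in chromatin accessibility profiles (ATAC-seq, in which a transposase cuts and tags open DNA) of adult zebrafish cardiomyocytes. A peak was counted as wide when its deposited end minus its deposited start was at least 800 bp and it did not lie on the mitochondrial genome. In the table shared by 4 groups, 530 of 16609 nuclear peaks (3.19%) were wide, and 310 of 6338 (4.89%) were in the separate A-Fos table. The rule used width alone and no measured level. The peaks just inside the limit, beside ptenb and fbxo33, were both 800 bp wide with 145.8 and 195.3 units per kb. Those just outside it, beside trmt1l and sox4b, were 799 bp wide with 146.6 and 194.1 units per kb. For these peaks of the shared table the levels lay in the same range on both sides. In the A-Fos table they differed more, with 40.4 and 122.8 units per kb just inside the limit and 194.7 and 112.9 just outside it.

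The series is about AP-1, a transcription factor made of a Fos and a Jun protein, during regeneration of the heart. There were 2 libraries of gata4:EGFP+ cardiomyocytes, sorted from regenerating hearts 4 days after cryoinjury with 5000 cells per reaction. Uninjured cardiomyocytes overexpressing junba (junba OE) or junbb (junbb OE), collected 7 days after induction by density gradient with 50000 cells per reaction, gave 2 libraries each. Uninjured myl7:nucDsRed+ cardiomyocytes, sorted with 5000 cells per reaction, gave 2 libraries and are the common control of these 3 groups. Cardiomyocytes of the wound border 4 days after cryoinjury were compared with A-Fos, a dominant-negative protein that pairs with Jun partners, in 3 libraries of fish given 4-hydroxytamoxifen (A-Fos (+)) and 3 of fish given ethanol vehicle (A-Fos (-)). These came from density gradients with 5000 cells per reaction. Each library pools 6 hearts of adult fish, and the cryoinjured fish (gata4:EGFP+, A-Fos (+) and A-Fos (-)) were 4 to 12 months old and of both sexes. The labels do not otherwise say whether replicates came from separate animals, so p-values measure the spread between these libraries, which may be technical. The promoters driving the transgenes were not given in the sources used here.

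Most open chromatin lies in short gaps between nucleosomes at promoters and enhancers. Wider stretches without nucleosomes are known from the promoters of strongly transcribed and rapidly inducible genes such as those for heat shock proteins, where several factors and the polymerase occupy the DNA together.

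Accessibility is given in the units of the deposited tables, which are background-corrected reads per peak divided by library size factors and rounded. An estimated 136146 to 331179 reads per library lay in the wide peaks of the shared table, out of 468132 to 1452172 nuclear reads in peaks. The A-Fos libraries had 51604 to 264857 reads in wide peaks, in the 5 of 6 libraries where the value of 1 read could be resolved. The mitochondrial peak, left out throughout, took 72.0% to 94.2% of a library's summed values. Cardiomyocyte marker peaks summed to 624 and 611 units in gata4:EGFP+, 556 and 316 in junba OE, 299 and 277 in junbb OE and 1209 and 1393 in myl7:nucDsRed+ libraries, over 15 peaks. The A-Fos data listed 1 cardiomyocyte marker peak, with 17, 20 and 40 units in A-Fos (+) and 20, 31 and 30 in A-Fos (-) libraries.

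Wide peaks were of 3 kinds by their gene assignment, a division made after the values were seen. Of those in the shared table, 140 had an assigned gene whose transcription start site lay within 500 bp of the peak centre, and 133 of these genes code for proteins. A further 72 had an assigned gene farther away, and 318 had no assigned gene. The promoter-centred peaks had a median width of 905 bp and a median of 166 units per kb. Peaks without a gene were wider and sparser, at a median of 2062.5 bp and 60.6 units per kb. Narrower peaks had a median width of 286 bp and 90.96 units per kb, and 35.0% of them were centred within 500 bp of a start site.

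The change from one kind to the other came with width. Of 3729 peaks from 400 to under 800 bp, 53.1% were centred near a start site, against 52.9% of 204 peaks from 800 to under 1000 bp and 30.3% of 99 peaks in the next bin. Of the 55 peaks of 5000 bp or more none was, and 2 had any gene. These 55 had a median width of 8065 bp and a median of 194 units per kb, above every narrower bin. In the A-Fos table the fall came earlier: 61.3% of 869 peaks from 400 to under 800 bp, 24.1% of 54 peaks from 800 to under 1000 bp and 2.27% of 44 peaks in the next bin were near a start site. There, 16 of the 310 wide peaks were promoter-centred, 21 had a gene farther away and 273 had none.

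**Figure D1:**
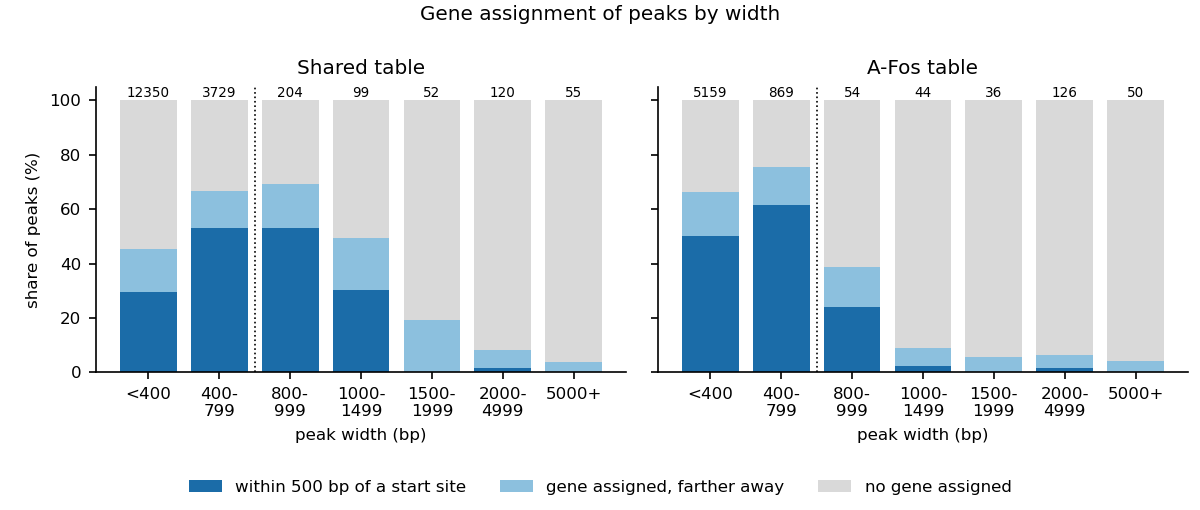
Share of peaks (percent, vertical axis) centred within 500 bp of an assigned start site, with a gene farther away, or with no assigned gene, by peak width in bp (horizontal axis, 7 bins, both tables). Numbers above the bars are peaks, the dotted line marks 800 bp, and no peak of 5000 bp or more was near a start site.

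Genes with a wide promoter-centred peak included regulators of chromatin and transcription. They were kdm6a and kdm6al, demethylases of histone H3 lysine 27, ezh1 and ezh2, the methyltransferases of the same residue, smarcc1b and smarcc2, subunits of the SWI/SNF remodelling complex, and hexim1 and mepce, parts of the complex that holds back the elongation kinase P-TEFb. The circadian repressors per1b, per2 and cry1aa and the AP-1 gene fosab were also among them. All these were picked as examples after the members were seen. Of 63 promoter-centred genes with an annotated process, 7 (11.1%) carried the term chromatin organization, against 65 of 2688 (2.42%) genes of narrower peaks near a start site. The term chromatin modification was carried by 0 of 63, against 8 of 2688, and rhythmic process by 0 of 63, against 16 of 2688. The terms were picked after the genes were seen, so the shares are given as a description.

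Beside the 3.19% of all peaks that were wide, lists of this size would hold few wide peaks, and several held none. In the shared table none of 44 sarcomere peaks, 50 translation peaks, 39 actin protrusion peaks, 35 cell cycle peaks, 17 extracellular matrix peaks and 17 calcium handling peaks reached 800 bp, and none of the peaks of 7 lists of cell type markers did. Wide peaks made up 6 of 29 heat shock and chaperone peaks, 5 of 44 energy metabolism peaks, 2 of 21 AP-1 peaks (fosab and jun), 2 of 44 other immediate early peaks (ier5 and btg2) and 2 of 44 peaks of cardiac and developmental transcription factors (meis1b and srfa).

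Wide peaks without a gene lay close together. Of these, 213 of 318 (67.0%) had another wide peak within 50000 bp, against 12 of 140 (8.57%) promoter-centred ones. Joining neighbours gave 66 groups of at least 2 wide peaks, 18 of them with at least 5 peaks. The group with most peaks, 10, spanned chr24:12360466-12447918, and 31.5% of that span lay in wide peaks. In the span chr10:16784011-16843128, 7 wide peaks covered 88.4% of the sequence, and in chr17:39902070-39966075 6 covered 71.6%. Chromosome 4 had the highest share of wide peaks in both tables, 37 of 580 (6.38%) in the shared table and 25 of 230 (10.9%) in the A-Fos table. Positions are on build danRer11 (GRCz11), per the submitters' processing notes, and are printed as deposited, with no statement whether they count from 0 or 1.

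The overlap of wide peaks between the tables depended on direction and kind. Every one of the 310 wide A-Fos peaks overlapped a wide peak of the shared table, and 139 (44.8%) had the same start and end, against 30.5% of the narrower A-Fos peaks. In the other direction, 467 of the 530 wide shared peaks (88.1%) overlapped an A-Fos peak of any width, against 36.1% of the narrower ones, and 300 (56.6%) overlapped a wide one. These were 15 of the 140 promoter-centred peaks (10.7%) and 263 of the 318 without a gene (82.7%). Whether the submitters called the peaks of the 2 tables independently was not given in the sources used here.

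Wide peaks were few but held a large part of the signal. They covered 21.1% of the summed peak length of the shared table and 28.1% of the mean nuclear value. The peaks of 5000 bp or more covered 9.30% of the length and 16.2% of the value. In the A-Fos table wide peaks covered 39.7% of the length and held 37.5% of the value.

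The share of nuclear values that lay in wide peaks differed between libraries. It was 22.5% and 25.0% in gata4:EGFP+ libraries, 22.2% and 39.4% in junba OE, 25.2% and 18.2% in junbb OE and 34.1% and 32.4% in myl7:nucDsRed+ libraries. The means were 23.8% ± 1.75 for gata4:EGFP+, 30.8% ± 12.1 for junba OE, 21.7% ± 4.97 for junbb OE and 33.3% ± 1.184 for myl7:nucDsRed+ (SD, n = 2 each). Both gata4:EGFP+ and both junbb OE libraries lay below both myl7:nucDsRed+ libraries, whereas the junba OE libraries lay on either side of them. In the A-Fos table the share was 46.7%, 40.8% and 39.9% in A-Fos (+) libraries, against 36.2%, 24.6% and 32.5% in A-Fos (-) libraries, with no overlap between the groups.

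The peaks of 5000 bp or more carried most of this spread. Their share was 11.4% and 26.1% in junba OE replicates 1 and 2 and 13.4% and 8.51% in junbb OE replicates 1 and 2. At these peaks junba OE replicate 2 exceeded replicate 1 by a median ratio of 2.97, at 54 of 55 peaks, and junba OE replicate 2 was the highest of the 8 libraries at 39 of them. The junbb OE replicate 2 library was the lowest of the 8 at 50 of 55, and in the A-Fos table A-Fos (+) replicate 1 was the highest of 6 at 40 of 50 and A-Fos (-) replicate 2 the lowest at 49 of 50. At promoter-centred wide peaks the ratio of replicate 2 to replicate 1 was 0.954 in junba OE and 1.05 in junbb OE. These 4 libraries therefore stood apart at the widest peaks, and results that rest on them are given below also without them.

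**Figure D2:**
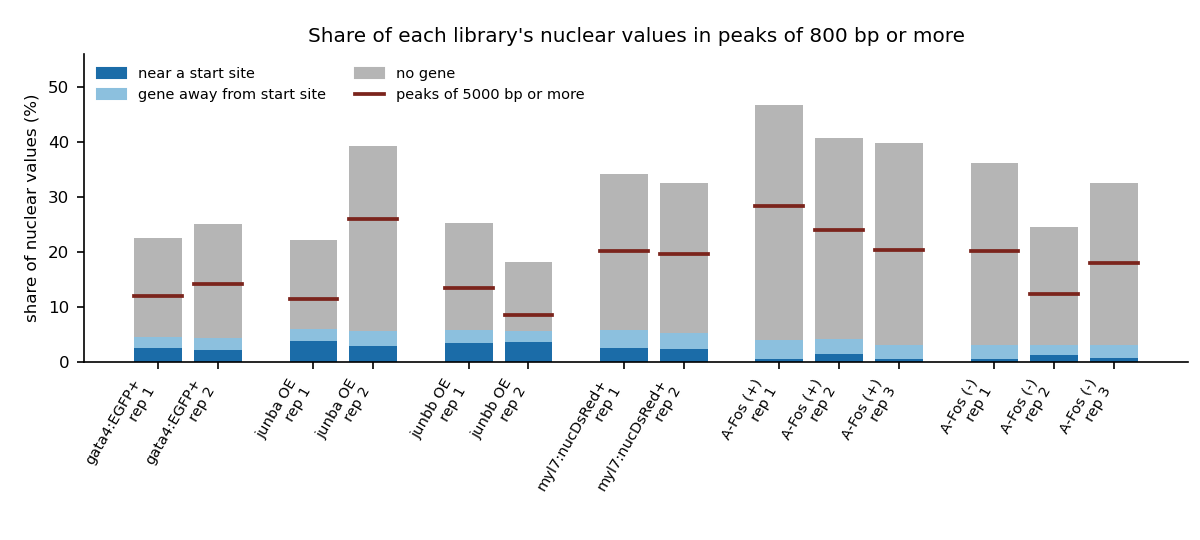
Share of each library's summed nuclear values (percent, vertical axis) that lay in wide peaks, stacked by gene assignment, for the 14 libraries; the red line marks the share in peaks of 5000 bp or more. The junba OE replicates differed most, at 22.2% and 39.4%, and the A-Fos (+) libraries lay above the A-Fos (-) libraries.

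The widest single peak showed the same pattern. At chr2:19447085-19487040, 39955 bp with no assigned gene, accessibility was 6202 and 7547 units in gata4:EGFP+, 4730 and 15584 in junba OE, 6658 and 4221 in junbb OE and 10402 and 11187 in myl7:nucDsRed+ libraries. Both gata4:EGFP+ and both junbb OE values were below both myl7:nucDsRed+ values, and the junba OE values enclosed them. None of the 3 differences from myl7:nucDsRed+ cells passed the test, at log2 changes of -0.66, -0.33 and -1.02. At one of the 2 peaks with an assigned gene, chr8:34771023-34796058 (25035 bp, ENSDARG00000101243), the values were 4128 and 4360 units in gata4:EGFP+, 4332 and 13498 in junba OE, 4006 and 2639 in junbb OE and 9012 and 8260 in myl7:nucDsRed+ libraries.

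**Figure D3:**
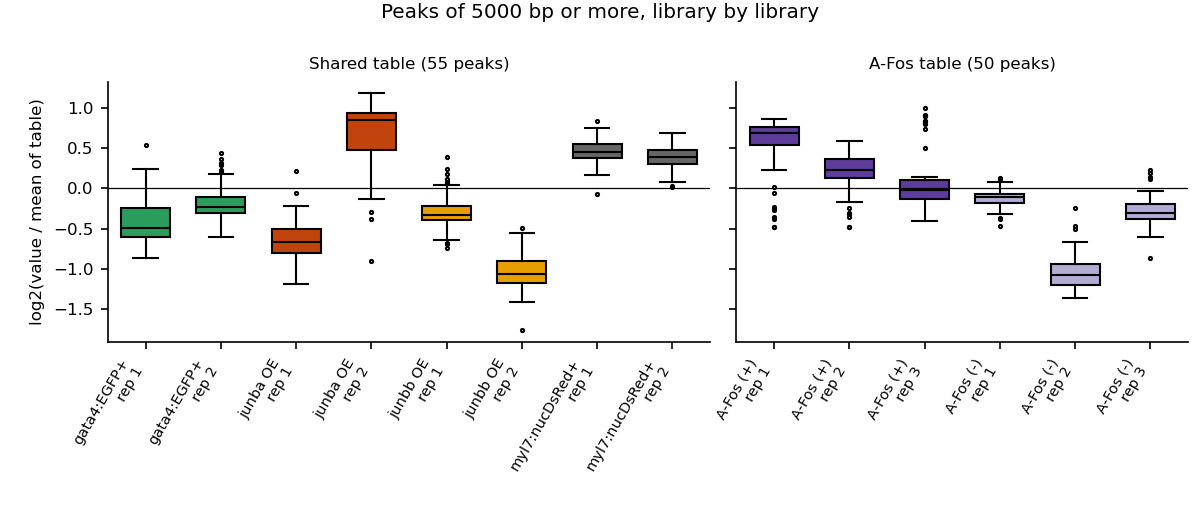
Accessibility of the peaks of 5000 bp or more, as log2 of the value over the peak's mean in its table (vertical axis). Each library has a box over these peaks, coloured by group. The junba OE replicate 2 library was the highest of 8 at 39 of 55 peaks and the A-Fos (-) replicate 2 library the lowest of 6 at 49 of 50.

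Changes were tested with limma on log2(value + 5) over all nuclear peaks with a mean of at least 10, which 521 of the 530 wide peaks of the shared table passed, and called at a p under 0.05 after Benjamini-Hochberg adjustment over all of them. Log2 changes are on this scale, which understates changes of low peaks, and are given ± SE.

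The first comparison asked what differed in regenerating cardiomyocytes. The gata4:EGFP+ and myl7:nucDsRed+ cells were sorted by different reporters, and an age was given only for the cryoinjured fish. Injury therefore cannot be told apart from the reporter or the cells it selects. In gata4:EGFP+ against myl7:nucDsRed+ cells, 17 of 521 wide peaks were called higher and 52 lower. Over all tested peaks, 12.3% were called higher and 6.61% lower, so the wide peaks had fewer calls upward and more downward than the background. The downward part turned under quantile scaling, with 4.41% of wide peaks and 9.60% of all peaks called lower, and was near the background per 500 bp, at 5.78% and 5.56%. Their median log2 change was -0.30, against -0.06 over all peaks. Among the 140 promoter-centred wide peaks 2 were called higher and 21 lower, with a median of -0.26, close to -0.21 for the 5513 narrower peaks within 500 bp of a start site, of which 143 were called higher and 419 lower. At the peaks of 5000 bp or more the median was -0.80 and 53 of 55 had a negative change, yet none was called, with a median 95% half-width of 1.03, and under quantile scaling the median was 0.07. With only these 2 groups fitted 41 of the 55 (74.5%) were called lower, beside 12.7% over all tested peaks. With values per 500 bp 4 (7.27%) were called lower, beside 5.56%.

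The peaks assigned to hsp70.1 and hsp70.2, inducible genes of chaperones that refold damaged proteins, were among the largest gains. Both were centred outside promoters, 3104 and 3173 bp from the assigned start sites. The peak at hsp70.1 (chr3:26111906-26113004, 1098 bp) had 139 and 92 units in gata4:EGFP+ cells, against 34 and 11 in myl7:nucDsRed+ cells. The log2 change was 2.24 ± 0.32 (limma adjusted p = 0.000152). Most peaks named as gains or losses were picked by a rule that required groups without overlap. Of all tested peaks, 29.0% had both gata4:EGFP+ libraries above both myl7:nucDsRed+ libraries and 32.2% had both below. The peak at hsp70.2 (chr3:26118619-26119741) had 99 and 72 units in gata4:EGFP+ cells, against 29 and 19 in myl7:nucDsRed+ cells (1.65 ± 0.27, limma adjusted p = 0.000455). At the third copy in this cluster, hsp70.3, values were 185 and 149 in gata4:EGFP+ cells and 154 and 102 in myl7:nucDsRed+ cells, which was not called. These genes are close paralogs, so how reads were split among them is uncertain.

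Further gains were at genes of other kinds. The peak at hk2, a hexokinase of the first step of glycolysis, had 14 and 21 units in gata4:EGFP+ cells, against 9 and 2 in myl7:nucDsRed+ cells, and just passed (1.17 ± 0.41, limma adjusted p = 0.0497). The sema6dl peak, at a semaphorin gene, had 118 and 106 units in gata4:EGFP+ cells, against 46 and 62 in myl7:nucDsRed+ cells. The mfap5 peak, at a gene for a microfibril component, had 40 and 40 units in gata4:EGFP+ cells, against 10 and 6 in myl7:nucDsRed+ cells (1.81 ± 0.45, limma adjusted p = 0.00817). In each of the 3 the groups did not overlap, as the naming rule required.

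Of the named peaks that were lower in gata4:EGFP+ cells, several were at promoters of regulatory genes. The kdm6a peak (chr9:33787924-33788942, 1018 bp) had 100 and 72 units in gata4:EGFP+ cells, against 188 and 188 in myl7:nucDsRed+ cells, a log2 change of -1.10 ± 0.22 (limma adjusted p = 0.00190). Its paralog kdm6al had 117 and 119 units in gata4:EGFP+ cells, against 171 and 203 in myl7:nucDsRed+ cells (-0.64, limma adjusted p = 0.0369). The cdk12 peak, at a kinase of the RNA polymerase II tail, had 75 and 66 units in gata4:EGFP+ cells, against 154 and 158 in myl7:nucDsRed+ cells. None of these groups overlapped, which the naming rule required for kdm6a and cdk12.

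The mepce peak fell in the same comparison, with 153 and 164 units in gata4:EGFP+ cells against 285 and 307 in myl7:nucDsRed+ cells (-0.88 ± 0.21, limma adjusted p = 0.00595). The irf2bp1 peak, at a transcriptional corepressor gene, had 90 and 73 units in gata4:EGFP+ cells, against 173 and 169 in myl7:nucDsRed+ cells. The rnf6 peak, at a ubiquitin ligase gene, had 70 and 72 units in gata4:EGFP+ cells, against 191 and 132 in myl7:nucDsRed+ cells. The slc25a23a peak, at a gene for a mitochondrial nucleotide carrier, had 64 and 71 units in gata4:EGFP+ cells, against 129 and 147 in myl7:nucDsRed+ cells. All were called lower, with log2 changes of -1.03, -1.11 and -0.98 for irf2bp1, rnf6 and slc25a23a.

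The wide peak at the AP-1 gene jun was among those lower. It had 202 and 198 units in gata4:EGFP+ cells, against 320 and 302 in myl7:nucDsRed+ cells (-0.62 ± 0.21, limma adjusted p = 0.0369). Of the 21 AP-1 peaks of all widths, 3 were called higher and 2 lower, beside 12.3% and 6.61% over all tested peaks. The wide peak at fosab had 141 and 108 units in gata4:EGFP+ cells and 131 and 133 in myl7:nucDsRed+ cells, and the groups overlapped. Among genes of RNA, the mir430c-3 peak (chr4:28693634-28696743, 3109 bp) had 110 and 101 units in gata4:EGFP+ cells, against 478 and 345 in myl7:nucDsRed+ cells (-1.90 ± 0.32, limma adjusted p = 0.000504). This microRNA family, which clears maternal messages in the zebrafish embryo, lies in many copies in 1 cluster, so its reads may belong to other copies.

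Endothelial marker peaks summed to 273 and 281 units in gata4:EGFP+ libraries, against 146 and 132 in myl7:nucDsRed+ libraries, and cardiomyocyte marker peaks were lower in sum, as given above. The 4 leukocyte marker peaks summed to 81 and 74 units in gata4:EGFP+ libraries, against 32 and 20 in myl7:nucDsRed+ libraries, and the 3 erythroid and thrombocyte peaks to 81 and 88, against 149 and 160. Their part in these results was not tested. The counts of lower calls rest on the scaling and on each library. Scaled to equal totals, which moved the median of all peaks to 0.15, 24 wide peaks (4.61%) were called higher and 15 (2.88%) lower, beside 14.6% and 2.03% over all peaks, with a median of -0.07. With libraries centred on the median of peaks near start sites or scaled to equal totals, the promoter-centred wide peaks gave 8 higher and 8 lower or 5 and 5, and the median was -0.01 under equal totals. Over all tested peaks, that centring gave 15.7% called higher and 2.95% lower. Without any single library of these 2 groups, fewer wide peaks were called in each direction. The median of wide peaks was -0.32 and -0.30 without gata4:EGFP+ replicate 1 or 2, against -0.07 and -0.08 over all tested peaks. Without myl7:nucDsRed+ replicate 1 or 2 it was -0.24 and -0.35, against -0.06 and -0.03. Of the 20 named peaks, hsp70.1, hsp70.2 and mir430c-3 kept their call under all alternatives run.

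The next comparisons asked what overexpression of either junb gene alone did in uninjured hearts. Both use the same myl7:nucDsRed+ libraries as the comparison above, so the 3 sets of differences share their control values. The junba OE and junbb OE libraries also differ from the controls in isolation method and cell number, which cannot be told apart from the transgene. Endothelial markers moved with them: 15 peaks of 13 of the 30 listed genes summed to 499 and 544 units in junba OE and 763 and 836 in junbb OE, against 146 and 132 in myl7:nucDsRed+ libraries, with 9 and 13 of 14 tested called higher in junba OE and junbb OE and none lower. The cardiomyocyte marker sums given above differed too, with every junba OE and junbb OE library below both myl7:nucDsRed+ libraries. The 3 erythroid and thrombocyte peaks summed to 41 and 24 units in junba OE and 46 and 55 in junbb OE, against the 149 and 160 in myl7:nucDsRed+ libraries. The part of these other cells in the results below was not tested, and fewer cells of a type and less accessibility per cell cannot be told apart in such pools.

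In junba OE against myl7:nucDsRed+ cells, 49 of 521 wide peaks were called higher and 103 lower, beside 10.3% called higher and 15.9% lower over all tested peaks. In junbb OE against myl7:nucDsRed+ cells, 41 were called higher and 127 lower, beside 12.6% called higher and 16.3% lower. The median log2 change of wide peaks was -0.32 in junba OE and -0.50 in junbb OE, against -0.07 and -0.02 over all tested peaks. Without myl7:nucDsRed+ replicate 1 or 2, fewer wide peaks were called in each direction. Their medians were then -0.26 and -0.31 in junba OE, against -0.08 and -0.07 over all tested peaks. In junbb OE they were -0.41 and -0.56, against -0.04 and -0.02.

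The direction differed by gene assignment. Of the 140 promoter-centred wide peaks, 28 were called higher and 2 lower in junba OE, with a median of 0.24, and 26 higher and 1 lower in junbb OE, with a median of 0.23. Of the 309 tested wide peaks without a gene, 8 were called higher and 82 lower in junba OE, with a median of -0.51, and 8 higher and 110 lower in junbb OE, with a median of -0.82. Narrower peaks within 500 bp of a start site moved the same way as the promoter-centred wide ones, with 646 called higher and 310 lower in junba OE, 644 and 311 in junbb OE, and medians of 0.15 and 0.17. The difference between the wide and narrower promoters was not tested. Scaled to equal totals, 45 promoter-centred wide peaks were higher and 1 lower in junbb OE, beside 18.0% and 10.7% over all tested peaks. Narrower promoters then gave 1078 higher and 162 lower. Centred on peaks near start sites, 19 wide ones were higher and 6 lower in junba OE, beside 7.64% and 19.4% over all tested peaks. In junbb OE 18 were higher and 3 lower, beside 9.49% and 19.5%. The medians of these wide peaks were then 0.10 in junba OE and 0.08 in junbb OE. Narrower promoters, which largely set that centre, were then near even, at 467 and 462 in junba OE and 430 and 418 in junbb OE. Their upward move thus depends on the scaling. At the promoter-centred wide peaks higher calls outnumbered lower ones under each scaling run, but the size of their shift depended on the scaling too.

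The split at promoters was seen without either overexpressing library, with fewer calls. At promoter-centred wide peaks, leaving out junba OE replicate 1 or 2 gave medians of 0.27 and 0.25. Leaving out junbb OE replicate 1 or 2 gave 0.28 and 0.20. Over all tested peaks the medians were then -0.06 and -0.09 in junba OE and -0.02 and -0.04 in junbb OE. Peaks without a gene were less even: their median was -0.92 without junba OE replicate 2 and -0.23 without junba OE replicate 1. Without junbb OE replicate 2, the library lowest at the widest peaks, the median of peaks without a gene was -0.46 in place of -0.82. Far fewer of them were then called lower, and the share of all wide peaks called lower came near that over all tested peaks. The median of all wide peaks was then -0.20, in place of -0.50, beside -0.04 over all tested peaks. The median at peaks of 5000 bp or more in junba OE was -0.41 with both libraries, 0.39 without replicate 1 and -1.08 without replicate 2, so no direction in junba OE can be given for them. In junbb OE all 55 had a negative change with both libraries, with a median of -1.15. Of them 15 (27.3%) were called lower, beside 16.3% over all tested peaks. With only the 2 groups fitted 40 (72.7%) were called lower, beside 19.2%. Centring on peaks near start sites gave 22 of the 55, beside 19.5%, and values per 500 bp gave 21 (38.2%), beside 14.1%. Equal totals gave 7 (12.7%), beside 10.7%. Quantile scaling gave 2 (3.64%), below the 14.5% over all tested peaks, and 21 of the 55 changes were then positive. The median of the 55 was -1.52 without junbb OE replicate 1 and -0.80 without replicate 2. Over all tested peaks it was -0.02 and -0.04.

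**Figure D4:**
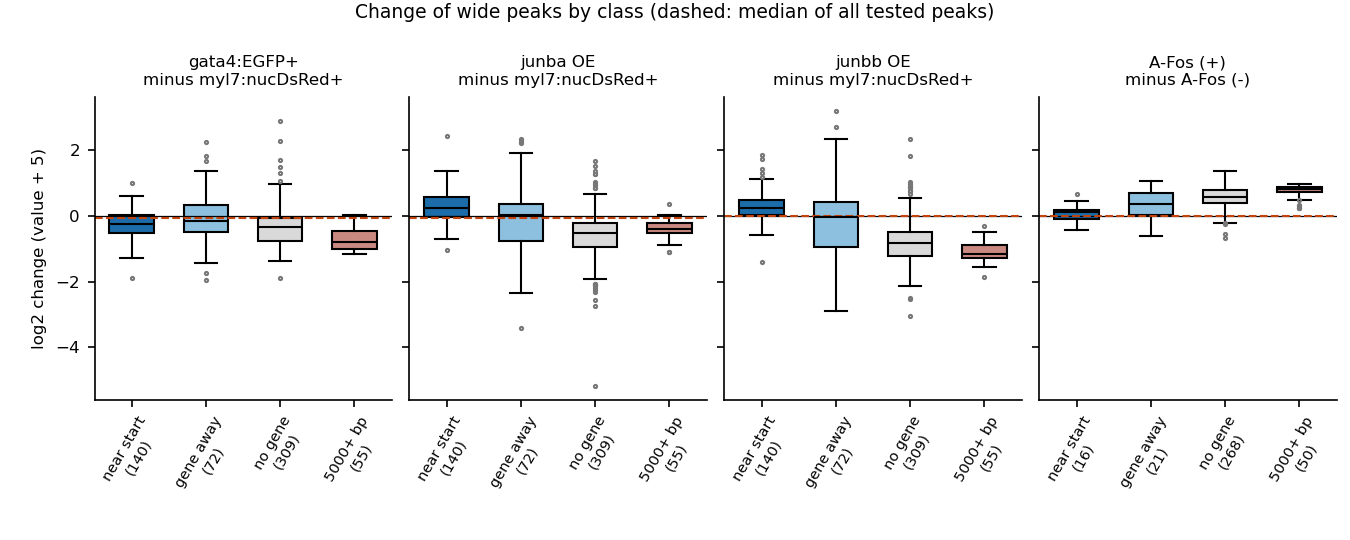
Log2 change of tested wide peaks (vertical axis, boxes with median and quartiles) by class in 4 comparisons. The dashed line is the median of all tested peaks, and peaks of 5000 bp or more are also part of the other wide classes. Promoter-centred wide peaks had medians of 0.24 in junba OE and 0.23 in junbb OE, while wide peaks without a gene had -0.51 and -0.82.

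In junba OE one of the largest gains of a wide peak with a gene symbol was at ubb, the polyubiquitin gene that supplies free ubiquitin under stress. Its peak (chr5:42091343-42093982, 2639 bp) had 973 and 1018 units in junba OE and 604 and 618 in junbb OE, against 200 and 166 in myl7:nucDsRed+ cells. All 4 overexpressing libraries were above both controls, with log2 changes of 2.42 ± 0.23 in junba OE (limma adjusted p = 7.67e-07) and 1.72 ± 0.23 in junbb OE (limma adjusted p = 2.52e-05). In gata4:EGFP+ cells the same peak had 162 and 123 units. Since ubb holds repeated coding units, reads within it cannot be placed with certainty.

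The peak at shank3b (chr4:9582518-9583325, 807 bp), whose mammalian counterpart encodes a scaffold of synapses, showed the largest called gain with a gene symbol in junbb OE. It was centred 3791 bp from the assigned start site. It had 101 and 81 units in junba OE and 164 and 168 in junbb OE, against 12 and 16 in myl7:nucDsRed+ cells. The log2 changes were 2.34 ± 0.31 (limma adjusted p = 4.67e-05) in junba OE and 3.18 (limma adjusted p = 1.02e-06) in junbb OE. In gata4:EGFP+ cells it had 16 and 13 units, a log2 change of 0.04 against myl7:nucDsRed+ cells.

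Of the 6 wide peaks at heat shock and chaperone genes, 3 were called higher in junba OE and 2 in junbb OE. The hsp70.1 peak had 118 and 116 units in junba OE and 155 and 157 in junbb OE, against 34 and 11 in myl7:nucDsRed+ cells, and the hsp70.2 peak had 143 and 116 in junba OE and 136 and 130 in junbb OE, against 29 and 19. The log2 changes were 2.29 and 2.23 in junba OE and 2.69 and 2.27 in junbb OE, all called. The hsp70l peak (chr8:4800285-4801162) was centred 2566 bp from the assigned start site. It had 163 and 132 units in junba OE and 71 and 40 in junbb OE, against 24 and 33 in myl7:nucDsRed+ cells. It was called in junba OE (2.19 ± 0.31, limma adjusted p = 6.71e-05) but not in junbb OE (0.82, limma adjusted p = 0.0511), and the difference between junba OE and junbb OE was itself not called.

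Several promoter-centred peaks were higher in both groups. The smarcc1b peak (chr19:19379060-19379984) had 202 and 236 units in junba OE and 227 and 197 in junbb OE, against 84 and 81 in myl7:nucDsRed+ cells. The sema6dl peak had 151 and 128 in junba OE and 198 and 212 in junbb OE, against 46 and 62. The irf9 peak, at a gene for the interferon response factor of the ISGF3 complex, had 119 and 85 in junba OE and 101 and 93 in junbb OE, against 34 and 47. As the naming rule required, all 4 overexpressing libraries exceeded both controls at each of these. The log2 changes lay between 1.178 at irf9 and 1.84 at sema6dl, both in junbb OE.

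The hk2 peak (chr5:13868800-13870457) had 29 and 35 units in junba OE and 36 and 54 in junbb OE, against 9 and 2 in myl7:nucDsRed+ cells, with log2 changes of 1.90 and 2.31. The hexim1 peak had 531 and 478 units in junba OE and 439 and 463 in junbb OE, against 281 and 266 (0.87 and 0.71). The hadhaa peak, at a gene of mitochondrial fatty acid oxidation, had 181 and 104 units in junba OE and 125 and 126 in junbb OE, against 96 and 48, with log2 changes of 0.96 and 0.83. All 6 changes were called.

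Of the 2 AP-1 genes with a wide peak, fosab had 261 and 224 units in junba OE and 213 and 219 in junbb OE, against 131 and 133 in myl7:nucDsRed+ cells, and was called higher in both (0.85 ± 0.21, limma adjusted p = 0.00583, and 0.69, limma adjusted p = 0.0175). The jun peak had 205 and 244 units in junba OE and 247 and 281 in junbb OE, against 320 and 302 in myl7:nucDsRed+ cells. The circadian gene cry1aa had 223 and 210 units in junba OE and 207 and 201 in junbb OE, against 117 and 135 (0.76 and 0.68, both called), while per2 had 230 and 250 in junba OE and 275 and 296 in junbb OE, against 239 and 270, which was not called.

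Most of the largest losses with a gene symbol lay away from start sites. An exception in junbb OE was the dre-mir-430a-2 peak, centred 38 bp from its start site (log2 change -1.42). The 5S_rRNA peak (chr24:2923518-2925054) was centred 4765 bp from the start site of its assigned gene, a multicopy ribosomal RNA gene. It had 10 and 0 units in junba OE and 12 and 4 in junbb OE, against 94 and 80 in myl7:nucDsRed+ cells. The peak lay away from the gene itself, and how reads with more than 1 possible position were handled was not given. The zdhhc8a peak (chr10:422822-423851), at a palmitoyltransferase gene, had 33 and 24 units in junba OE and 53 and 17 in junbb OE, against 76 and 111 in myl7:nucDsRed+ cells (-1.55, limma adjusted p = 0.00333, and -1.44, limma adjusted p = 0.00411). In gata4:EGFP+ cells zdhhc8a stood at 245 and 190 units, above the same controls (1.19 ± 0.35, limma adjusted p = 0.0232). The lgals8b peak, at a galectin gene, was lower in all 3 groups. It had 30 and 35 units in gata4:EGFP+, 64 and 51 in junba OE and 42 and 68 in junbb OE. Against these, myl7:nucDsRed+ cells had 86 and 229, and these 2 values lay far apart. With values per 500 bp, lgals8b lost its call in all 3 groups, and zdhhc8a lost its call in gata4:EGFP+ and junbb OE. Leaving out 1 library gave log2 changes of -2.14 to -0.74 for zdhhc8a in junbb OE. For lgals8b in junba OE they were -1.91 to -0.55.

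**Figure D5:**
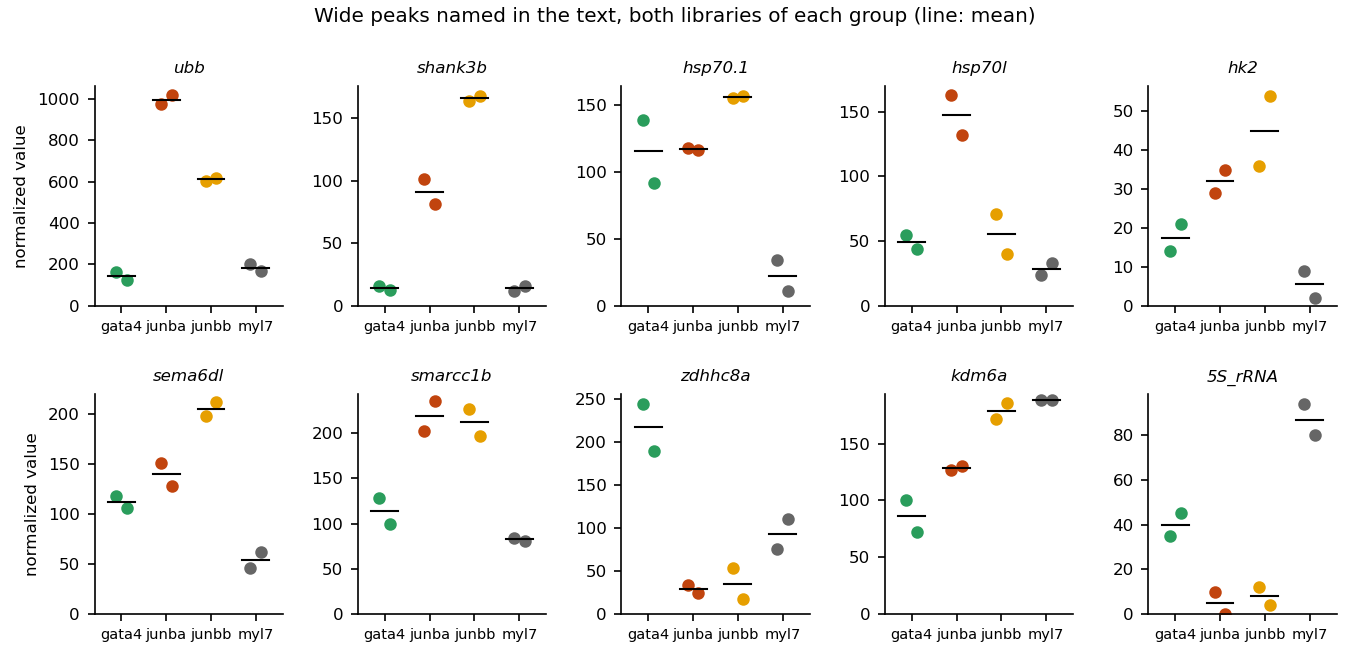
Accessibility in the units of the deposited table (vertical axis) of 10 wide peaks in the libraries of the shared table, with 1 point per library and a line at the mean of the 2 libraries of a group. At ubb and smarcc1b all 4 junba OE and junbb OE points lie above both myl7:nucDsRed+ points. At the peak assigned to 5S_rRNA all 4 lie below.

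Wide peaks without a gene also held large changes, of which the 3 given here were chosen after their values were seen. At chr23:45462065-45463033 accessibility was 189 and 209 units in gata4:EGFP+, 14 and 6 in junba OE and 15 and 4 in junbb OE, against 16 and 32 in myl7:nucDsRed+ cells (2.87 ± 0.42 in gata4:EGFP+, limma adjusted p = 0.000174). At chr4:31347787-31348654 it was 133 and 112 in gata4:EGFP+, 12 and 0 in junba OE and 64 and 18 in junbb OE, against 379 and 281, and all 3 groups were called lower. At chr14:1042332-1043375 it was 15 and 18 in gata4:EGFP+, 108 and 126 in junba OE and 150 and 240 in junbb OE, against 33 and 34, so the gata4:EGFP+ values lay below and the overexpressing values above the same controls.

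The junba OE and junbb OE cells were then compared with each other. Of 521 wide peaks none was called higher in junba OE and 1 lower, beside 0.0541% called higher and 0.0338% lower over all tested peaks. The called peak, chr17:36988205-36989022, had 14 and 14 units in junba OE and 78 and 60 in junbb OE (-1.95 ± 0.32, limma adjusted p = 0.00640). At an unadjusted p under 0.05 there were 84 (16.1%), beside 10.1% over all tested peaks. The median log2 change of wide peaks was 0.09, with a median 95% half-width of 0.58. At promoter-centred wide peaks the median was 0.03, with a half-width of 0.47. Without junba OE replicate 1, 73 wide peaks were called higher and 8 lower, beside 0.842% and 1.34% over all tested peaks, and 33 of the 55 peaks of 5000 bp or more were among those higher. Without junba OE replicate 2 none was higher and 2 were lower, and the median of the peaks of 5000 bp or more was 0.03 in place of 0.76, so the values of the widest peaks depend on which junba OE library is kept.

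The last comparison asked what blocking AP-1 did during regeneration. Only the A-Fos (+) fish were given 4-hydroxytamoxifen, so effects of the drug and of A-Fos cannot be told apart. Of the 310 wide A-Fos peaks, 305 were tested, and none was called in A-Fos (+) against A-Fos (-) cells by limma, as over all 6012 peaks, where 0% were called. At an unadjusted p under 0.05 there were 53 wide peaks (17.4%), beside 3.33% over all tested peaks. This count depended on the scaling and on single libraries. Scaled to equal totals there were 13 of 305 wide peaks, a smaller share than the 402 of 6012 over all tested peaks. Without A-Fos (-) replicate 2 there were 16 of 305, beside 198 of 6019. Without A-Fos (-) replicate 1 there were 87 of 305, beside 254 of 5908. All 3 A-Fos (+) libraries lay above all 3 A-Fos (-) libraries at 56 wide peaks (18.4%), beside 3.34% over all tested peaks, and below them at 2, beside 3.58%. The median log2 change was 0.52, against -0.00 over all tested peaks, and 278 of 305 wide peaks had a positive change, although no single peak passed.

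The median differed by kind of wide peak. The 50 peaks of 5000 bp or more all had a positive change, with a median of 0.81, and 23 of them had no overlap between the groups. The 268 tested wide peaks without a gene had a median of 0.56, with 253 positive. The 16 promoter-centred wide peaks had a median of 0.11, with 9 positive and 7 negative, and a median of -0.05 without A-Fos (-) replicate 1. Without A-Fos (-) replicate 2, the library lowest at these peaks, the median of wide peaks was 0.37 and that of peaks of 5000 bp or more 0.50, still positive at all 50. Without A-Fos (+) replicate 1, the highest library, the medians were 0.52 and 0.62, also positive at all 50. Scaled to equal totals, the median was 0.26 at wide peaks and -0.24 over all peaks. Quantile scaling left the peaks of 5000 bp or more with 27 positive and 23 negative changes, so the level of the shift depends on how libraries are scaled.

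Single peaks show how the libraries lie. The peak with the smallest p, chr16:2271953-2272942, had 107, 76 and 43 units in A-Fos (+) libraries, against 33, 17 and 26 in A-Fos (-) libraries, with a log2 change of 1.36 ± 0.33 (limma adjusted p = 1). The widest, chr8:34771101-34796018 (24917 bp), had 6073, 4944 and 3316 units in A-Fos (+) libraries, against 3164, 1711 and 2830 in A-Fos (-) libraries, with no overlap (log2 change 0.90 ± 0.48, not called). The csmd2 peak, at a gene for a membrane protein with CUB and sushi domains, had 223, 151 and 257 units in A-Fos (+) libraries, against 141, 93 and 66 in A-Fos (-) libraries.

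Several peaks that were called in the shared table had overlapping values in the A-Fos groups. The ubb peak had 785, 2830 and 491 units in A-Fos (+) libraries, against 402, 1887 and 567 in A-Fos (-) libraries (0.44 ± 0.69), so replicate 2 of both groups was far above the others. The hsp70.1 peak had 398, 160 and 289 units in A-Fos (+) libraries, against 523, 168 and 177 in A-Fos (-) libraries (0.08). The values at hsp70.2 were 395, 160 and 211 units in A-Fos (+) libraries, against 486, 183 and 183 in A-Fos (-) libraries, and at hsp70l 156, 129 and 124, against 271, 149 and 114. The mir430c-3 peak had 321, 845 and 378 units in A-Fos (+) libraries, against 209, 330 and 376 in A-Fos (-) libraries. In all 5 the groups overlapped.

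The listed genes with a wide peak that were not called in any comparison of the shared table with myl7:nucDsRed+ cells included meis1b and srfa, transcription factors of the heart, btg2, an antiproliferative immediate early gene, and the glycolytic genes hk1, pkma and pgam1a. Of the 29 heat shock and chaperone peaks of all widths, 4 were called higher and 5 lower in gata4:EGFP+, 6 and 4 in junba OE and 4 and 2 in junbb OE, beside shares over all tested peaks of 12.3% higher and 6.61% lower in gata4:EGFP+, 10.3% and 15.9% in junba OE and 12.6% and 16.3% in junbb OE. The wide ones among them, 6 in all, gave 2, 3 and 2 calls higher in gata4:EGFP+, junba OE and junbb OE, and none lower. The chaperone peaks dnaja1 and hsp90aa1.2 were wide and not called.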

How the data were processed

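The authors deposited 2 tables, of 8 and 6 libraries, whose values are named as background-corrected and DESeq-normalized counts and are whole numbers, treated here as a score. The fraction of a peak inside the gene body, per the file headers, and the unsigned distance to the start site come from the authors' annotation. Each table was normalized separately and compared only within itself. The submitters' processing notes list, without roles, MACS2, Picard 2.18.16, STAR 2.6.1d, DESeq, Trimmomatic 0.36, DESeq2 1.18.1 and deepTools 2.5.7, and build danRer11 (GRCz11). Peak thresholds, mapping quality filters, multi-mapping handling and the background correction were not given in the sources used here; each can change the width and level of a peak.

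Here, limma 3.58.1 (R 4.3.3) was run on log2(value + 5) of nuclear peaks whose mean reached 10, with trend and robust empirical Bayes, two-sided, Benjamini-Hochberg over all tested peaks of a table. The shared table was fitted with all 8 libraries. The code was tested on simulated data. Python 3.11.15 with pandas 2.3.3, NumPy 2.4.6, SciPy 1.17.1 and Matplotlib 3.10.9 did the remaining counts and figures. The value of 1 read, 0.53 to 2.04 units in the shared table, was read from the spacing of values, so depths are estimates. The spacing fitted weakly in some libraries that were kept, with r squared of 0.525 in gata4:EGFP+ replicate 1 and 0.515 in A-Fos (-) replicate 2. The first of these gave the largest depth of the shared table.

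Named genes were, in each comparison, up to 10 called wide peaks with a symbol and non-overlapping groups in each direction, the widest and the highest per kb, those in 13 gene lists, and those at the width limit; others are given as examples. Members and lists were chosen with earlier results of these data known. Symbols came from the table or, for 18 genes, from an ID table. Replicate numbers were not used to pair libraries in the main fit (see the closing part).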

Additional observations from a re-analysis of the deposited data

How the results depend on the processing

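No wide A-Fos peak was called under any alternative. The statements below give, for wide peaks, the percent called higher, the percent called lower, and the median log2 change minus that of all tested peaks.

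In gata4:EGFP+ against myl7:nucDsRed+ cells these were 3.26%, 9.98% and -0.24. The percent higher was 5.37% with centring, 5.76% with quantile scaling, 1.183% at a mean of at least 100, 2.11% with a pseudocount of 1 and 1.71% with values per 500 bp. Over all tested peaks it was 15.7% with centring, 12.3% with quantile scaling and 11.2% per 500 bp. The percent lower was 4.22% with centring, 4.41% with quantile scaling, 2.88% with equal totals, 30.9% with only these 2 groups fitted and 5.78% per 500 bp. Over all tested peaks the percent lower was 2.95%, 9.60%, 2.03%, 12.7% and 5.56% in the same order. The median difference was -0.089 at a mean of at least 100 and turned to 0.068 with quantile scaling. Leaving out 1 library gave 0.766% to 2.50% higher, 1.92% to 3.65% lower and -0.32 to -0.18. Of the named changes, 46 of 80 such values lost their call.

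For junba OE the values were 9.40%, 19.8% and -0.25. The percent higher was 5.90% at a width of at least 1000 bp. The percent lower was 11.5% at a mean of at least 100 and 7.49% per 500 bp, the latter below the 14.2% over all tested peaks. The median difference was -0.15 with quantile scaling, -0.16 per 500 bp and -0.39 at 1000 bp. Leaving out 1 library gave 5.58% to 7.49% higher, 10.8% to 28.2% lower and -0.45 to 0.0099, turning sign without junba OE replicate 1. Without junba OE replicate 1 the median of wide peaks was -0.05, against -0.06 over all tested peaks. The share of wide peaks called lower was then near that over all tested peaks, so no excess was seen. Without junba OE replicate 2 the medians were -0.53 and -0.09, and the share called lower lay above that over all tested peaks. For junbb OE the values were 7.87%, 24.4% and -0.48. The percent higher was 13.2% with equal totals, 5.14% per 500 bp and 4.35% at 1000 bp. The percent lower was 14.4% with equal totals, 11.8% at a mean of at least 100 and 13.7% per 500 bp, the latter beside 14.1% over all tested peaks. With equal totals 18.0% of all tested peaks were called higher and 10.7% lower, and per 500 bp 10.8% were called higher. The median difference was -0.32 at a mean of at least 100, -0.22 with quantile scaling, -0.36 per 500 bp and -0.72 at 1000 bp. Without junbb OE replicate 2 the share called lower was near that over all tested peaks, as given above. Without junbb OE replicate 1 it lay above that share. Leaving out 1 library gave 4.60% to 5.00% higher, 8.81% to 31.4% lower and -0.77 to -0.16.

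Between junba OE and junbb OE the values were 0%, 0.192% and 0.12. The percent lower was 0% at a mean of at least 100, per 500 bp and at 1000 bp, and 0.384% with quantile scaling. The median difference turned to -0.016 with quantile scaling. Leaving out 1 library gave 0% to 14.01% higher, 0% to 1.54% lower and -0.013 to 0.29, the negative one without junbb OE replicate 2. For A-Fos the median difference was 0.52, 0.18 with quantile scaling and 0.34 to 0.67 with 1 library left out, with 0% called. At 1000 bp the share of values in wide peaks was 20.8% in gata4:EGFP+ and 30.3% in myl7:nucDsRed+ libraries. The cause of these differences was not tested.

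Same-numbered libraries of the shared table deviated together by correlations of -0.0323 to 0.0204, so no pairing by number was seen there. Those of the A-Fos table did so by 0.280, 0.256 and 0.0823, and each A-Fos library correlated best with its own number. The labels do not say whether same-numbered libraries were prepared together. With the replicate block, the percent lower between junba OE and junbb OE was 0.384%, and the other percentages lay within 1.5 times those given, at 3.07% and 10.2% for gata4:EGFP+.

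Leaving out 1 library takes a group of the shared table to 1 sample, which is then assumed to vary like the other groups. Widths are those of the deposited peaks, and with 2 libraries a group, changes within the half-widths given were not detectable.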

Other observations

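The wide peaks with the highest accessibility per kb had no assigned start site within 500 bp. At chr11:17565137-17569338 the mean was 1057 units per kb, with 2740 and 3390 units in gata4:EGFP+, 2385 and 7852 in junba OE, 3563 and 2375 in junbb OE and 6848 and 6363 in myl7:nucDsRed+ libraries. The peak at si:cabz01070527.3 had 981 units per kb and the one at chr17:39938875-39942787 had 938. The promoter peak of polr2a, the gene of the large subunit of RNA polymerase II, reached 619 units per kb. It had 436 and 339 units in gata4:EGFP+, 568 and 733 in junba OE and 500 and 642 in junbb OE, against 371 and 422 in myl7:nucDsRed+ libraries, and was not called in any of the 3 comparisons.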
